A study of Mus musculus with 2 samples.

Results

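The translation initiation and elongation factors are the genes whose symbols start with Eif or Eef. The Argonaute genes with old Eif2c symbols and Eif2ak2, Eif2s3x and Eif2s3y were left out. By this rule 61 of the 19057 genes named on the array were members, 48 of them Eif and 13 Eef genes, measured by 123 of its 45281 probes. They were followed in bone marrow lineage- Sca1+ c-Kit+ (LSK) cells, a sort gate for haematopoietic stem cells and early progenitors, of C57BL/6J mice. One sample carried the genotype Control and the other the genotype Ago2 Hem KO, the study's Ago2-deficient mice. Ago2 encodes an Argonaute protein that carries microRNAs to their target messenger RNAs. The labels give no age or number of animals, no driver of the deletion and no alleles of the control, so what limits each sample as a model is not known here. Each genotype had 1 Illumina bead array, so there was no spread between replicates, no test was run, and with so few arrays the precision of each value is unknown.

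Initiation factors bring the ribosome to the start codon of a messenger RNA. eIF4F, made of the cap-binding protein eIF4E, the helicase eIF4A and the scaffold eIF4G, recruits the messenger RNA, while eIF2 delivers the initiator methionyl-tRNA and eIF3 holds the small ribosomal subunit. Elongation factors then drive each cycle of peptide synthesis: eEF1A brings aminoacyl-tRNA, the eEF1B subunits recharge it with GTP, and eEF2 moves the ribosome along. Protein synthesis is kept low in haematopoietic stem cells compared with more mature progenitors. Argonaute complexes repress their targets in part by acting on initiation, which is the background to setting the factors' own transcripts side by side.

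A probe was taken as detected where the scanner software's detection p was under 0.01. The control array detected 32.8% and the Ago2 Hem KO array 34.4% of all probes. The Ago2 Hem KO array was the brighter, with an upper quartile signal of 135 against 121, and the arrays were set to one distribution before differences were taken. A probe whose raw signal was slightly higher in Ago2 Hem KO can therefore have a difference at or below 0. Differences are log2 values of Ago2 Hem KO minus control, raw signals are linear bead intensities, and a gene is said to rise or fall where its brightest detected probe differed at least 1.5-fold. The targeted gene Ago2 fell 2.44-fold, from 288 in the control to 179.5 after deletion, and the sources used here do not give the position of its probes relative to the deleted part. Of the genes that mark the gate, Kit (2071 and 2793), Cd34, Gata2 and Meis1 were detected on both arrays and Flt3 on neither, while Ly6a was not analysed here. Markers of red cells moved between these samples: of 7 measured, 5 were detected on both arrays and all 5 rose at least 2-fold. Over all genes detected on both arrays 0.304% rose so far. Epor was detected in Ago2 Hem KO alone and Alas2 on neither array. The summed raw signal of the red cell markers was 1615 and then 4456. Of the 6 macrophage markers 4 passed detection in Ago2 Hem KO alone, against 2.31% of all genes on the array. The summed signal of the 6 was 1351 and 1774, most of it Vcam1. All 5 B cell markers detected on both arrays lay below 0, from -0.79 to -0.03, where 41.8% of all genes lay above 0. The summed signal of the B cell markers was 1311 and 1212, and Pax5 was detected on neither array. Neutrophil markers summed to 22674 and 24841. Of 7 detected on both arrays 2 were lower at least 2-fold, against 0.134% of all genes. Mmp9 was detected in the control alone, as were 1.2% of all genes on the array. Megakaryocyte markers summed to 955 and 1151, with 2 of 4 above 0. Of the T and NK cell markers, 6 of 7 were detected on neither array, Cd3e among them, with a summed signal of 655 and 720. All these sums are of raw signals, before the arrays were set to one distribution. They include undetected probes and the background, whose inferred mean was 84.7 per probe in the control and 87.8 in Ago2 Hem KO. A sum over undetected markers is thus mostly background. The part of these cells in the values below was not tested, and in such bulk samples fewer cells of a type and less RNA per cell cannot be told apart.

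As a group the translation factors differed between the genotypes about as all genes did. Of the 61 genes, 49 were detected on both arrays, 1 on the Ago2 Hem KO array alone, 0 on the control array alone and 11 on neither. Over all genes on the array these shares were 43.1% for both, 2.31% for Ago2 Hem KO alone and 1.2% for the control alone. Of the 49 members, 0 rose and 1 fell at least 1.5-fold, where 1.9% of all 8212 genes detected on both did so upward and 1.9% downward. At 2-fold, 0 members rose and 0 fell, against 0.304% and 0.134% of all genes. The median difference was -0.036 for the members and -0.048 for all genes. Members above 0 numbered 21 of 49 (42.9%), against 41.8% of all genes. These counts rest on setting the arrays to one distribution, which removes a common shift. With scaling to the same median instead, 3 members rose and 0 fell, against 6.44% and 0.402% of all genes, and 35 of 49 (71.4%) lay above 0, against 75.8%. The middle 50% of the members lay between -0.18 and 0.06, and that of all genes between -0.20 and 0.11. Most members were bright, 42 of the 49 lying above the median normalized signal of all detected genes, and among genes above it the quartiles were -0.14 and 0.07 for the members and -0.17 and 0.11 for all genes. The 25 members with a raw signal over 1000 on both arrays ran from -0.31 to 0.10. The middle 95% of all 1247 genes that bright lay between -0.38 and 0.38. A count of members among genes that passed detection describes these 2 arrays and supports nothing further.

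**Figure D1:**
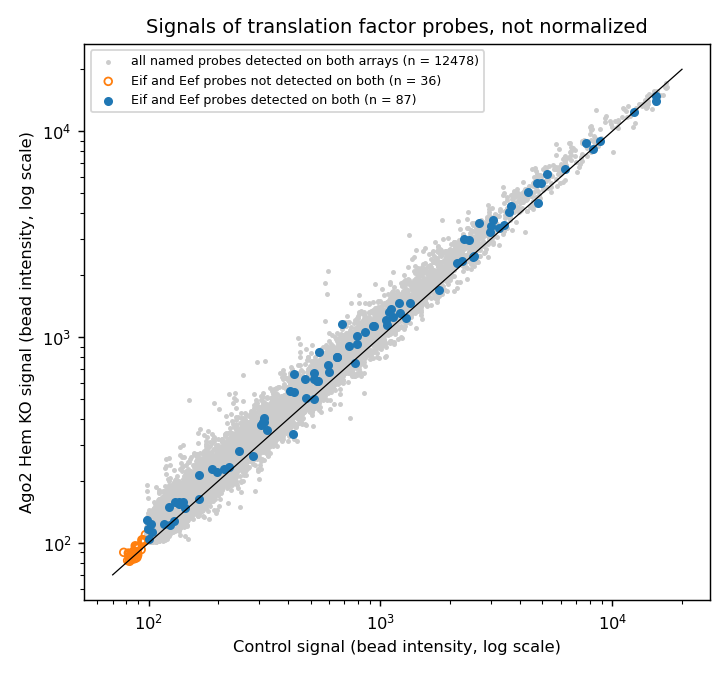
Raw bead intensity of each probe on the control (x) and Ago2 Hem KO (y) array, both on log axes, with the line of equal signal; grey points are all named probes detected on both arrays, blue points the 87 Eif and Eef probes detected on both, and orange rings the 36 that were not. The blue points lie within the grey cloud along its whole length, and the cloud sits above the line in its middle because the Ago2 Hem KO array was brighter.

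**Figure D2:**
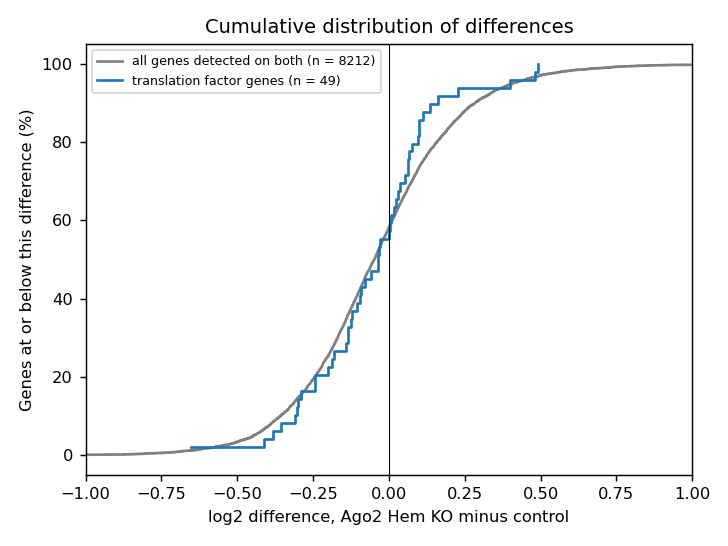
Percent of genes (y) at or below each log2 difference of Ago2 Hem KO minus control (x), for 49 translation factor genes in blue and 8212 genes in grey. The curves cross near 0, and the blue curve is the steeper one between its quartiles of -0.18 and 0.06, against -0.20 and 0.11 for all genes.

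The promoter windows of 46 members were present in the RefSeq table for build GRCm38.p6, and some are shown because many translation factor messenger RNAs are known to begin with a pyrimidine tract, the terminal oligopyrimidine element through which mTORC1 controls their translation. Each line holds 60 bases before and 20 bases from the annotated start, read 5′ to 3′. Capitals mark a run of at least 8 pyrimidines beginning with C on the transcribed sense strand, or a match to CACGTG (an E-box) or TATAAA. The first 4 belong to Eef1a1, Eif3f, Eef2 and Eif4a1, which were picked as examples, and the last 2 to the members with the highest differences.
Eef1a1, chr9:78481705-78481784, minus strand: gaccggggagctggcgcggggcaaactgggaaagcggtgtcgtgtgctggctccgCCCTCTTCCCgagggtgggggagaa
Eif3f, chr7:108934355-108934434, plus strand: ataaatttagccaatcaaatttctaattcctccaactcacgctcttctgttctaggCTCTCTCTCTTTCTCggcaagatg
Eef2, chr10:81176571-81176650, plus strand: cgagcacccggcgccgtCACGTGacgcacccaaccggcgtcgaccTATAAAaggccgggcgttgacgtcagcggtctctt
Eif4a1, chr11:69672404-69672483, minus strand: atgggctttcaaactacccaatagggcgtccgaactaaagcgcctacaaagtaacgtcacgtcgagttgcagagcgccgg
Eef1e1, chr13:38659009-38659088, minus strand: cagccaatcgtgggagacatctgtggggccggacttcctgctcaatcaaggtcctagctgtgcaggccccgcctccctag
Eif3a, chr19:60790674-60790753, minus strand: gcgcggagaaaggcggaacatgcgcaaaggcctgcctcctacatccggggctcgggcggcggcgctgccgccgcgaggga
The Eif4a1, Eef1e1 and Eif3a lines hold no match, and those found for Eif4a1 and Eif3a below lie outside the bases printed. The annotated start may not be the start used in these cells, and a match is a description of letters. A run was accepted anywhere in the 100 bases around an annotated start, and a tract shorter than 8 was not marked. The search therefore cannot tell which messenger RNAs begin with a terminal oligopyrimidine element.

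A gene was counted where any of its annotated starts had a match, so a share of genes and a share of single windows are unlike measures. The 46 members include some not detected on both arrays, whereas the detected genes set beside them all were. Searched over the 100 bases around the start, the pyrimidine run was present in 19 of 46 members (41.3%), in 31.8% of 6777 detected genes with a window and in 28.8% of all 32851 windows. On the opposite strand the same run was present in 28.3% of members and 34.5% of detected genes. Members with the run had a median difference of 0.05 (15 detected on both arrays) and those without it -0.08 (23 detected), while all detected genes with and without it lay at -0.04 and -0.05. Over the full 300 bases and both strands, CCGGAAG, the core of ETS factor sites, was present in 34.8% of members and 22.5% of detected genes (8.86% of all windows). CACGTG was present in 26.1% of members and 12.5% of detected genes (7.15% of all windows), among them Eif3a, Eif4e, Eif4a1 and Eef2. TATAAA was present in 6.52% of members and 8.43% of detected genes (13.6% of all windows). The members with TATAAA were Eif3b, Eif3f and Eef2, whose differences ran from -0.31 to -0.19, and all detected genes with TATAAA had a median of -0.06.

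The factors that first prepare the small subunit showed small differences. Eif1ad, a relative of the scanning factor eIF1A, was highest of its group with a control signal of 861 and an Ago2 Hem KO signal of 1056, a difference of 0.07, and its 3 probes all lay above 0. Eif1b, a paralogue of the start codon fidelity factor eIF1, was lowest with signals of 1348 and 1465, a difference of -0.10. Eif1a differed by 0.06, and Eif1ax was detected on neither array. Among the eIF2 genes, Eif2s2, which encodes the β subunit of the complex that carries initiator tRNA, gave 648 and 802 (0.10). Eif2d, an initiator tRNA binding factor that can act without eIF2, gave 519 and 499, a difference of -0.30 on its brightest probe and of 0.03 on the other detected one. Eif2a, another factor outside the eIF2 complex despite its symbol, gave 2133 and 2294 (-0.13). Eif2s1, the α subunit that stress kinases phosphorylate, was not analysed here, and the pseudogene Eif2s3x-ps1 was detected on neither array.

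All 5 subunits of eIF2B, the exchange factor that reloads eIF2 with GTP, were detected on both arrays and their differences ran from -0.29 to 0.07. Eif2b5, the catalytic ε subunit, was highest with 1084 and 1331, a difference of 0.07, and its other probes lay at 0.04 and -0.04. Eif2b2, the β subunit, was lowest with 774 and 749 (-0.29), and the one subunit whose raw signal was lower after Ago2 deletion. Eif2b3 and Eif2b4, the γ and δ subunits, lay at -0.04 and 0.02. Eif2b1 lay at -0.04 on its brightest probe and 0.23 on the other. Of the kinases that phosphorylate eIF2, Eif2ak1, the haem-regulated kinase of red cell precursors, gave 476 and 506 (-0.14). Eif2ak3, which encodes the endoplasmic reticulum stress kinase PERK, was detected on the Ago2 Hem KO array alone, at 103 against 93.5, too near background for a fold. Eif2ak4, the amino acid starvation kinase GCN2, was detected on neither.

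The eIF3 complex had the most members and their differences were spread on both sides of 0. Of 12 eIF3 genes 10 were detected on both arrays, 5 above and 5 below 0, with a median of -0.06. Eif3a, the largest subunit and the core of the complex, was highest with signals of 544 and 846, a 1.40-fold difference (0.48) that 282 of 8212 genes reached or passed. It rested on 1 of 4 probes, the other 3 not being detected on either array. Eif3c, another core subunit, gave 793 and 1008 (0.14), with a second probe at 0.26. Eif3b, also of the core, was lowest at 1292 and 1234 (-0.31), and its other detected probe lay at -0.26. Eif3d, a subunit that can itself bind the cap, gave 4765 and 4498 (-0.30). The subunits Eif3f (8843 and 8969) and Eif3i (8300 and 8193) lay at -0.19 and -0.20. Behind their near-equal raw signals was a brighter array in Ago2 Hem KO. For Eif3f a second probe gave -0.16, and for Eif3i the other detected probes gave -0.19 and 0.02. Eif3h, Eif3k and Eif3l lay between 0.02 and 0.10 and Eif3j1 at -0.14, and Eif3e and Eif3m were detected on neither array. A second Eif3l probe lay at -0.16. Subunits of one complex thus differed in sign, and whether such gaps exceed the error of a single array could not be tested.

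**Figure D3:**
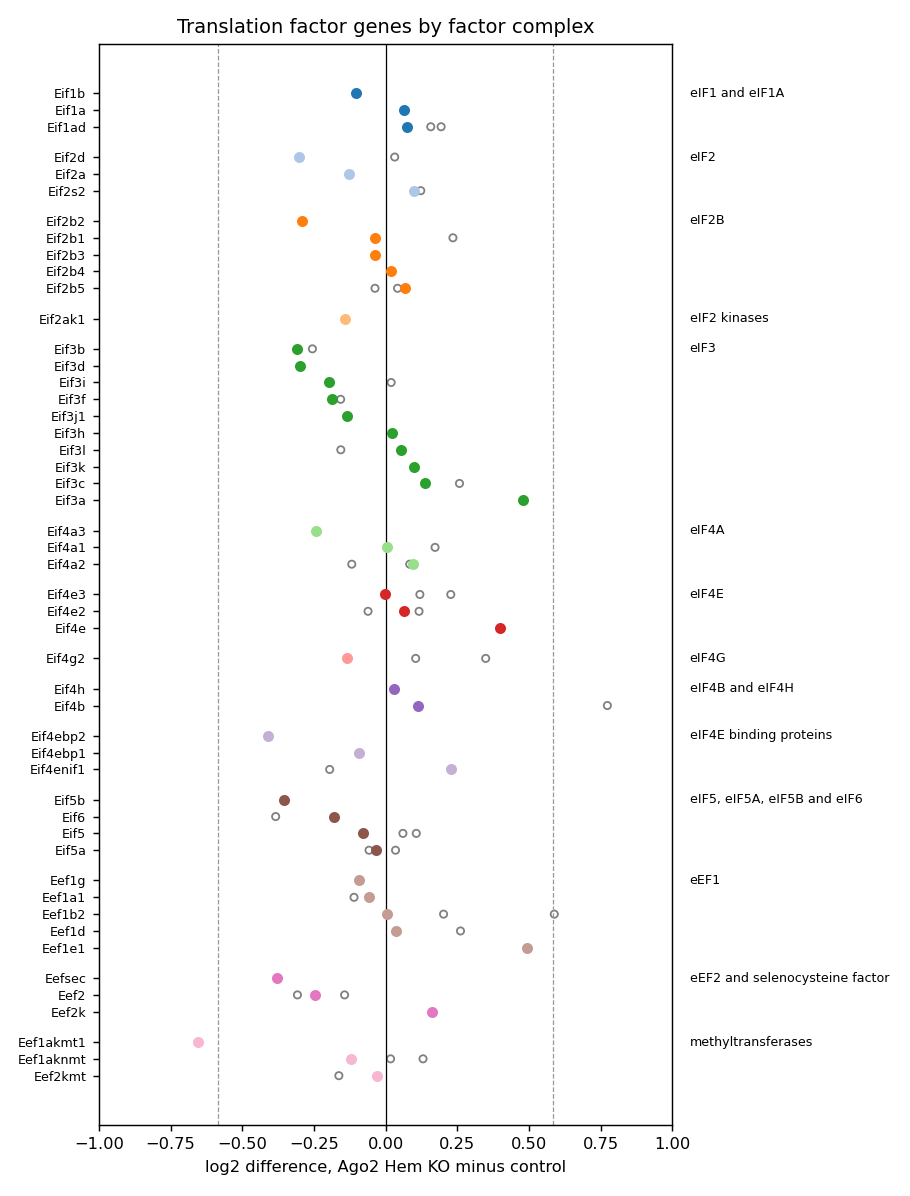
Log2 difference of Ago2 Hem KO minus control (x) for each of 49 translation factor genes detected on both arrays, grouped by factor complex; filled points are the brightest probe of each gene, open rings its other detected probes, and dashed lines mark 1.5-fold. One filled point, Eef1akmt1 at -0.65, lies past a dashed line, and the rings of Eif4b and Eef1b2 stand farthest from their filled points.

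The helicase genes Eif4a1 and Eif4a2 of eIF4F lay at or just above 0 on their brightest probes. Eif4a1, the main cytoplasmic helicase, gave 7729 and 8753 (0.0063), with 0.17 on a second probe. Eif4a2, a paralogue that has also been linked to microRNA repression, was highest at 2420 and 2978 (0.10), its other detected probes lying at 0.08 and -0.12. Eif4a3, the helicase of the exon junction complex, was lowest at 2500 and 2463 (-0.24). The cap-binding gene Eif4e was measured by 1 dim probe, at 102 in the control and 123 in Ago2 Hem KO, where inferred background means were 84.7 and 87.8. Its difference was 0.40 (1.32-fold) and was 0.13 without background correction. Eif4e2, the cap-binding homologue that acts in translational repression, gave 1201 and 1469 (0.06), and Eif4e3 gave 533 and 614 (-0.0006), with its other probes at 0.12 and 0.23. The germ line paralogue Eif4e1b was detected on neither array.

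Of the scaffold genes, Eif4g1 was not analysed here and Eif4g3 was detected on neither array. Eif4g2, which encodes the eIF4G relative DAP5 that lacks the eIF4E site, gave 1072 and 1150 (-0.13) on its brightest probe, but 0.10 and 0.35 on the others. Eif4h and Eif4b, cofactors of the helicase, lay at 0.03 (5233 and 6201) and 0.11 (306 and 376). The second Eif4b probe, at 98.0 and 129, gave 0.77, the widest gap between detected probes of any member (0.66). The Eif4ebp genes encode binding proteins that hold eIF4E away from eIF4G until mTORC1 phosphorylates them. Eif4ebp2 was lowest of all Eif members with 283 in the control and 264 in Ago2 Hem KO, 1.33-fold lower (-0.41). With no background correction it lay at -0.289 and Eif3d was lower (-0.293). In the authors' processed values it lay at -0.291, again with Eif3d lower (-0.292). Eif4ebp1 gave 1138 and 1255 (-0.09), and Eif4ebp3 was detected on neither array. Eif4enif1, which encodes 4E-T, another protein that binds eIF4E, gave 472 and 625 (0.23) on its brightest probe and -0.20 on the other.

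The genes Eif5, Eif5a, Eif5b and Eif6 lay below 0 on their brightest probes. Eif5, the GTPase activator of eIF2, gave 2956 and 3252 (-0.08), with its other probes at 0.06 and 0.11. Eif5a, the hypusine-bearing factor that relieves stalled ribosomes, was highest of this group at 4938 and 5620 (-0.03), its other probes at 0.03 and -0.06. Eif5b, the GTPase of subunit joining, was lowest at 165 and 163 (-0.35), and at -0.185 with no background correction. Eif6, which keeps free large subunits from joining, gave 2258 and 2336 (-0.18), with -0.38 on a dimmer probe. All 4 lay below 0, where 41.8% of all genes lay above it and the median of all genes was -0.048. When the arrays were scaled to the same median in place of one distribution, 3 of the 4 lay above 0. Under cyclic loess or with the mean of each gene's probes, 1 of the 4 did. Eif5a2 was detected on neither array.

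The elongation factor eEF1 genes lay between -0.09 and 0.49. Eef1a1, the main form of the factor that brings aminoacyl-tRNA to the ribosome, gave 15484 in the control and 14790 in Ago2 Hem KO (-0.06). A second Eef1a1 probe gave 15405 and 14088 (-0.11). These are near the highest signals of the arrays, 17868.5 in the control and 17114.6 in Ago2 Hem KO, and Eef1a1 lay at -0.20 under cyclic loess. RefSeq lists pseudogene copies of Eef1a1, so which copies its probes measured is uncertain. Its neuronal and muscle paralogue Eef1a2 was detected on neither array. Of the exchange factor subunits, Eef1g gave 12401 and 12338 (-0.09) and Eef1d gave 4321 and 5086 (0.04). Eef1b2 gave 2991 and 3469 (0.0047) on its brightest probe, 0.20 on the next and 0.59 on a dimmer one (681 and 1155).

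Eef1e1 had the highest difference of all members. It encodes AIMP3, a scaffold protein of the aminoacyl-tRNA synthetase complex rather than an exchange subunit. Its 1 probe gave 425 in the control and 660 in Ago2 Hem KO, a 1.41-fold difference (0.49) that 264 of 8212 genes reached or passed. Eef2, the translocase, gave 2531 and 2485 (-0.25), and its 3 probes lay between -0.31 and -0.14. Eef2k, the kinase that inhibits eEF2, gave 316 and 402 (0.16). Eefsec, which brings selenocysteine tRNA to the ribosome, gave 124 and 122 (-0.38) on 1 probe near background, and -0.15 with no background correction.

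Eef1akmt1, which encodes a lysine methyltransferase of eEF1A, was the 1 member that fell at least 1.5-fold. Its signal was 421 in the control and 337 in Ago2 Hem KO, a 1.57-fold fall (-0.65) on its 1 probe, and 99 of 8212 genes fell as far or further. Its difference ran from -0.65 to -0.44 over the settings tried and missed 1.5-fold with no background correction (-0.51), with scaling to the same median (-0.44) and in the authors' processed values (-0.52). Eef1aknmt, another eEF1A methyltransferase gene, lay at -0.12 with its other detected probes above 0 (0.02 and 0.13). Eef2kmt, which methylates eEF2, lay at -0.03 (246 and 279), and Eef1akmt2 was detected on neither array.

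Second probes give a measure of how far such differences reach within a gene. Of 26 members with at least 2 probes detected on both arrays, the second-brightest had the sign of the brightest in 15 (57.7%), against 63.8% of 3016 genes. The gap between these probes had a median of 0.14 for the members and 0.18 for all such genes. The members furthest from 0, Eef1akmt1, Eef1e1, Eif3a, Eif4ebp2, Eif4e, Eefsec and Eif5b, each had 1 detected probe, so none of these had a second measurement.

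Other genes of translation were set beside the factors. Of 51 listed, 43 were detected on both arrays, 26 of those 43 lay above 0, where 41.8% of all genes did, and their median was 0.08. At 1.5-fold 2 rose and 1 fell, where 1.9% of all genes rose and 1.9% fell. Abce1, the ATPase that splits ribosomes after termination, rose from 108 to 148 (0.70), near background. The rise of Abce1 was lost with no background correction (0.27), with an offset of 50 (0.43) and in the authors' processed values (0.27). Gspt2, a paralogue of the release factor eRF3 gene Gspt1, fell from 298 to 229 (-0.80). This fall was lost with no background correction (-0.55), with scaling to the same median (-0.57) and in the authors' processed values (-0.56). Gspt1 itself gave 4960 and 5665 (-0.03). The release factor eRF1 gene Etf1 lay at 0.11.

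Poly(A) binding proteins join the tail of a messenger RNA to eIF4G. These genes, their partners and the Larp genes lay above 0 in 8 of 8 cases with a median of 0.33, against 41.8% of all genes above 0, and 1 of the 8 rose at least 1.5-fold, against 1.9% of all genes. Pabpc1, the main cytoplasmic form, rose from 1390 to 2453 (0.64) on its brightest probe. Its other detected probes lay on the opposite side, at 464 and 407 (-0.49) and at 229 and 208 (-0.49), so the rise is that of 1 probe of 3. Larp1, which represses terminal oligopyrimidine messenger RNAs, lay at 0.52 on its brightest probe and at -0.08 and 0.11 on the others, and Larp4b at 0.36 and -0.31. With the mean of each gene's detected probes 6 of the 8 lay above 0, the median was 0.13 and Pabpc1 lay at -0.12. Pdcd4, an eIF4A inhibitor and a known microRNA-21 target, gave 2920 and 2440 (-0.49), with other probes at -0.37, 0.17 and 0.55.

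Of the mTORC1 and kinase genes, 11 were detected on both arrays, with 4 above and 7 below 0. Over all genes 41.8% lay above 0. Mknk2, a kinase of eIF4E, lay highest at 0.33 (1122 and 1630) and its relative Mknk1 lowest at -0.31 (612 and 586), with 0.07 on the other Mknk1 probe. Mtor itself lay at 0.10, with -0.24 on its other detected probe. Genes of the response to eIF2 phosphorylation had a median of 0.09, against -0.048 for all genes, and 7 of 9 lay above 0. Of those 7, Impact and Nck1 lay at 0.03 and 0.05, and a dimmer Impact probe (112 and 142) at 0.44. Ddit3 lay at 0.28 on its brightest probe and at -0.13 on the other detected one. Asns, a target of ATF4, was highest at 0.38 on its brightest probe and -0.04 on the other. Atf4 lay at 0.27, with 0.37 on its other probe. Chac1, another target of ATF4, was lowest at -0.27. Scanning and reinitiation factors ran from Dhx29 at -0.12 to Mcts1 at 0.20. Enzymes that make hypusine on eIF5A and diphthamide on eEF2 ran from Dhps at -0.14 to Dph2 at 0.30, whose other probes lay at 0.16 and -0.07. The mean of its probes put Dph2 at 0.13. Of these enzymes 4 of 8 were detected on neither array, as was the eEF1 partner gene Tpt1.

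**Figure D4:**
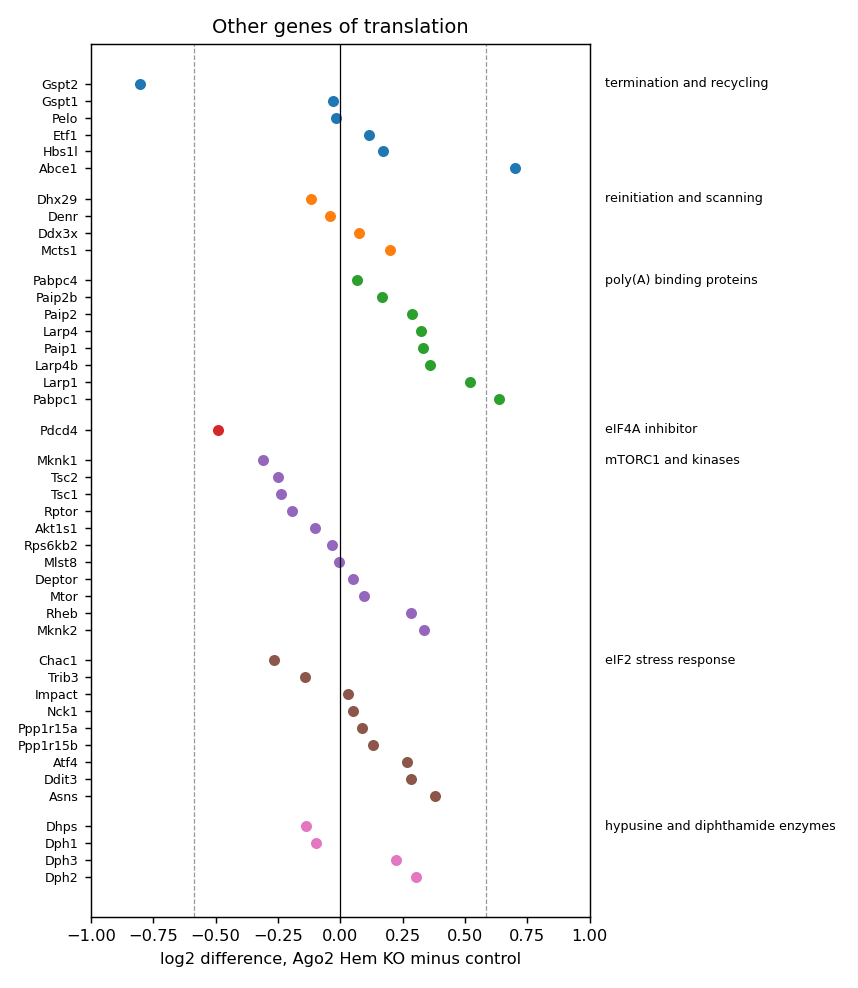
Log2 difference of Ago2 Hem KO minus control (x) for the brightest detected probe of 43 other genes of translation, grouped by function, with dashed lines at 1.5-fold. Gspt2 lies past the left line, Abce1 and Pabpc1 past the right one, and all 8 genes of the poly(A) binding group lie right of 0.

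The translation factors kept close to all genes in the settings tried. Their median stayed within 0.02 of the median of all genes in 10 of 11 settings and was 0.05 above it with the mean of each gene's probes. Scaling to the same median moved both, to 0.16 for the members and 0.16 for all genes. The sign of a member changed under that scaling, under cyclic loess or with the mean of each gene's probes, for 15 of 49 members in all, and the remaining alternatives left each sign as it was, several of them by reusing the same values. Eif3a and Eef1e1, each with 1 detected probe, lay at 0.67 and 0.69 under that scaling and at 0.49 and 0.51 under cyclic loess.

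**Figure D5:**
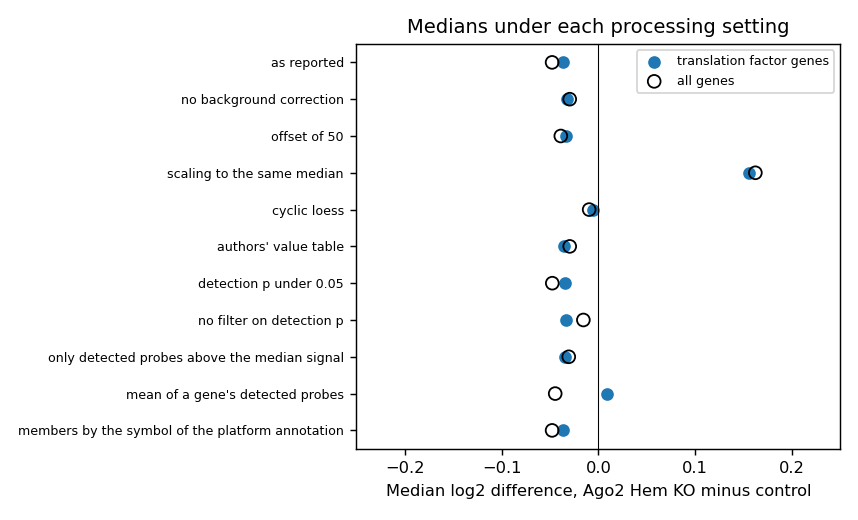
Median log2 difference of Ago2 Hem KO minus control (x) under each processing setting (y), for the translation factor genes (blue points) and all genes (black rings). Both stand at 0.16 when arrays are scaled to the same median, and they lie farthest apart, by 0.05, with the mean of each gene's detected probes.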

How the data were processed

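Per the labels' protocols, RNA was column extracted, amplified, biotin labelled and measured on Illumina bead arrays. The deposited non-normalized table holds, per the file headers, a linear bead intensity and a detection p-value per probe and array. The authors also deposited processed intensity values of the same arrays. Both columns of that table share nearly one distribution (medians 86.2 and 86.2) and rank probes as the signals do. Its target is unknown, and the submitters' processing notes name BeadStudio.

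Background was corrected by normexp, with its mean and spread inferred from the deposited detection p-values (limma 3.58.1, R 4.3.3). An offset of 16, quantile normalization and log2 followed. Quantile normalization removes any shift common to most genes. The offset shrinks dim differences, but with background correction these were still larger than without it, as for Eif4e (0.40 against 0.13). At 1.5-fold 1.9% of all genes rose and 1.9% fell, against 0.487% and 0.146% without background correction. Symbols came from the platform annotation, updated through RefSeq (34807 of 34885 probes with 1 symbol matched; 18 had several and 10378 none). A gene's value was its brightest probe detected on both arrays. The steps were tested on simulated data.

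Every member counted as named. Signals are given for the highest and lowest member per complex, core members, members past 1.5-fold or detected on 1 array, and those with the widest probe gaps. Others, and the further genes given beside the lists, were chosen after their values were seen. The members, lists, promoter motifs and thresholds were chosen with earlier results of these data known. There were 10 alternatives, covering background, offset, normalization, detection filter, several probes, symbols and the authors' table.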

Additional observations from a re-analysis of the deposited data

How the results depend on the processing

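Under scaling to the same median, the members' median was 0.16, 35 lay above 0, 3 (Eef1e1, Eif3a and Eif4e) rose and 0 fell at least 1.5-fold, and the median of the other translation genes was 0.30. That scaling moved the median of all genes from -0.05 to 0.16. The 1 fall at 1.5-fold became 0 without background correction and 0 in the authors' value table; the cause was not tested. No member reached 2-fold in either direction in any of the 11 settings. In the other alternatives the members' median stayed between -0.036 and 0.0085. Signals near the inferred background means of 84.7 and 87.8 limit Eif4e, Eefsec, Eif5b, Eif3h, Eif3j1, Abce1 and the dim second probes. No paired analysis was possible because each genotype had 1 array. Leaving out a sample was not possible for the same reason.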
